A study of Mus musculus with 8 samples.

Results

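Cells break glucose down to pyruvate through glycolysis, and lactate dehydrogenase can turn that pyruvate into lactate, which leaves through monocarboxylate transporters. The pentose phosphate pathway branches off at glucose 6-phosphate and supplies NADPH and ribose. When oxygen is scarce the transcription factor HIF is no longer hydroxylated and degraded, and it raises many glycolytic genes together with genes for oxygen sensing, mitophagy and angiogenesis. Macrophages are known to shift between glycolysis and mitochondrial respiration as they are activated or settle in a tissue.

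The 39 genes described here were chosen by symbol as glucose and lactate transporters, glycolytic and pentose phosphate enzymes, and HIF targets with parts of the HIF pathway itself. All 39 were found among the 23469 genes of the deposited table. They fell into 23 transporter and enzyme genes (3 transporters, 16 glycolytic enzymes and 4 pentose phosphate enzymes) and 16 hypoxia genes. Of these, 35 had a mean of at least 1 TPM (a relative transcript level scaled for transcript length) over all libraries and were tested, 21 transporter and enzyme genes and 14 hypoxia genes. Hk1, the brain hexokinase, Pfkm, the muscle phosphofructokinase, and the hypoxia genes Egln3 and Ndrg1 stayed below that level and were not tested.

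Bulk RNA-seq had been made from 4 libraries of AeEMs and 4 libraries of AeMMs, macrophages sorted from the bloody malignant ascites of female C57BL/6 mice bearing ID8 ovarian tumour cells. AeEMs were the tdTomato-negative macrophages, labelled as embryonic derived, and AeMMs were the tdTomato-positive macrophages, labelled as monocyte derived. Both groups carried the Ms4a3TdT genotype, in which Cre driven by Ms4a3, a gene of granulocyte-monocyte progenitors, switches on tdTomato in their progeny, so that any monocyte-derived cell that escaped recombination would be counted as AeEM. The mice were 4 to 5 weeks old when the tumour cells were put into the peritoneum, the ascites was taken on day 65 after that, and the labels give no other treatment. The ascites came from 4 mice, so the AeEM and AeMM libraries share animals, but the sources used here do not say whether libraries with the same number are from the same mouse.

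Values are given as TPM turned back from the deposited log2(TPM + 1), and each difference is AeEM minus AeMM on that log2 scale, which understates the change of genes near 1 TPM. Differences were tested with limma, unpaired, over all 8801 genes that averaged 1 TPM or more, and an adjusted p (Benjamini-Hochberg over all 8801 genes) below 0.05 was the threshold. In the deposited table the mean of a gene hardly differs between 3 sets of libraries (the pair of replicate 1, the pair of replicate 2, and the 4 libraries of replicates 3 and 4), which shows that the values had been adjusted by set. The unpaired fit does not account for those removed means, so its p-values tend to be too small. The adjusted p of a limma fit that has the set as a term (the 3-set fit) therefore stands beside each call. At an unadjusted p below 0.05 there were 1587 genes in the unpaired fit and 848 in the 3-set fit. In bulk samples fewer cells of a type and less RNA per cell cannot be told apart.

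Each library held 8498 to 8753 genes at 1 TPM or more, with 50.5% to 54.3% of its TPM in the 10 genes of highest mean TPM over all libraries. The depth of the libraries is unknown, so precision rests on the spread of the 4 libraries of a group. The adjustment by set had removed a part of that spread. Every SD and every lack of overlap given below is of the adjusted values. All 7 macrophage markers were present, at a summed 69176 to 77261 TPM in AeEMs and 70280 to 85383 TPM in AeMMs. Other signals moved with the groups. The summed level of 9 dendritic cell markers was 131 to 214 TPM in AeEMs and 75.2 to 96.1 TPM in AeMMs, with 2 of 4 tested called higher (Cd209a and Itgax) and 1 in the 3-set fit (Cd209a, limma adjusted p = 0.0326, against 0.115 for Itgax). Most of that sum was Cd209a and Clec10a, which was not called (86.4 to 108 TPM in AeEMs and 67.4 to 82.7 TPM in AeMMs). Flt3, Zbtb46, Xcr1, Clec9a and Itgae averaged below 1 TPM and were not tested. The summed level of 19 cell cycle genes was 872 to 1017 TPM in AeEMs and 696 to 805 TPM in AeMMs, with 2 of 19 called higher (Mcm5 and Tubb5) and 0 in the 3-set fit (adjusted p = 0.155 and 0.177). The 7 erythroid markers summed to 7665 to 12746 TPM in AeEMs and 4210 to 10475 TPM in AeMMs, with 0 of 5 tested called. The 9 neutrophil markers summed to 36.4 to 40.7 TPM in AeEMs and 70.7 to 84.2 TPM in AeMMs (S100a8 and Prtn3, the 2 tested, were called lower, with Mpo and Cxcr2 below 0.1 TPM throughout), and the 9 lymphocyte markers to 34.7 to 86.2 TPM in AeEMs and 73.7 to 87.9 TPM in AeMMs (1 of 5 called lower, Nkg7). In the 3-set fit limma called 0 of these (adjusted p = 0.0605 for S100a8 and Prtn3, and 0.0712 for Nkg7). Among all tested genes 1.25% were called higher and 1.16% lower in the unpaired fit. The sort used Ly6G, Siglec F and Ly6C beside the macrophage markers, and the Ly6C gene Ly6c2 had 0.160 to 2.43 TPM in AeEMs and 3.68 to 6.51 TPM in AeMMs, a difference of -1.55 (limma adjusted p = 0.0478, 3-set adjusted p = 0.251). Markers of tumour epithelium and mesothelium summed to at most 6.97 TPM in a library, and the fibroblast and endothelial genes Col1a1, Col1a2, Pdgfra and Cdh5 stayed below 0.1 TPM throughout. Several of the former had an identical value in all libraries of replicates 3 and 4, such as 0.835 TPM for Krt8 and 1.28 TPM for Krt18. Such low values need not be measured expression. The part of these signals in the results on the 39 genes was not tested.

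Of the 14 tested glycolytic enzymes, 12 had a positive difference (median 0.29). In the unpaired fit 3 of the 21 tested transporter and enzyme genes were higher in AeEMs (Eno1, Pgam1 and Aldoa), none was lower, and 18 did not pass, against 1.25% of all tested genes called higher and 1.16% called lower. At an unadjusted p below 0.05, 9 of the 21 were higher and 1 was lower, against 766 and 821 of the 8801 genes. In the 3-set fit 0 of the 35 tested genes passed in limma, where 0.102% of all genes were called higher and 0.0568% lower. At an unadjusted p below 0.05 that fit had 9 of the 35, against 848 of the 8801 genes. The difference was positive for 17 of the 21 (81.0%, median 0.19), against 48.8% of all tested genes (median -0.01). All 4 AeEM libraries lay above all 4 AeMM libraries for 8 of the 21, against 5.72% of all tested genes.

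**Figure D1:**
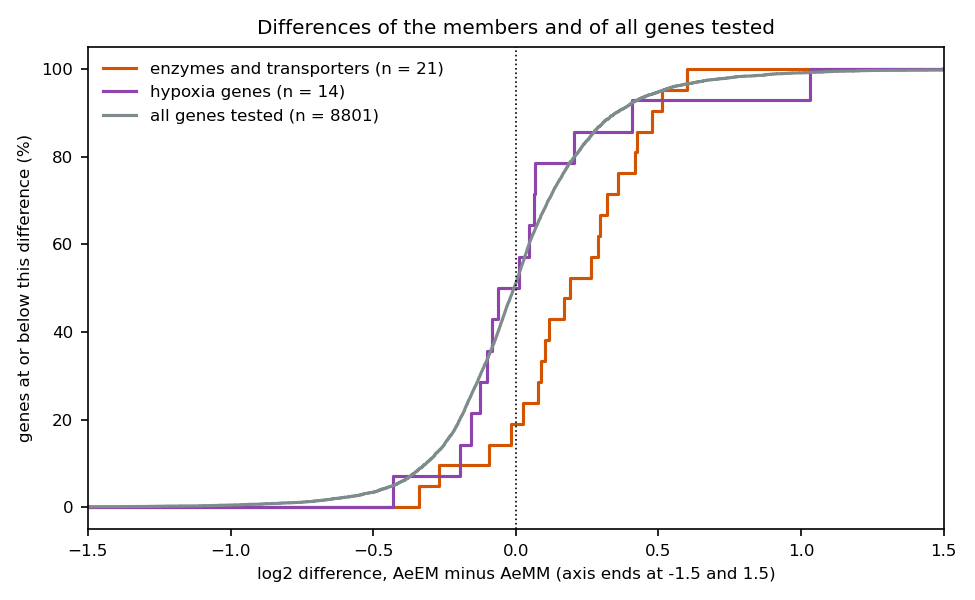
Cumulative share of genes (vertical axis, %) at or below each log2 difference, AeEM minus AeMM (horizontal axis), for the 21 tested transporter and enzyme genes, the 14 tested hypoxia genes and all 8801 genes tested. The curve of the enzymes and transporters lies to the right of that of all genes for most of its course, with a median of 0.19, and that of the hypoxia genes stays near it, with a median of -0.03.

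Eno1, which encodes the enolase that makes phosphoenolpyruvate, had the largest difference among the glycolytic enzymes. It had 291, 302, 307 and 305 TPM in AeEMs, against 199.8, 199, 223 and 175 TPM in AeMMs. The lowest AeEM library stood well above the highest AeMM library, and the AeEM libraries varied less than the AeMM libraries. The mean was 301 ± 6.78 TPM in AeEMs and 199 ± 19.7 TPM in AeMMs (SD, n = 4 each), a log2 difference of 0.60 (SE 0.08, limma adjusted p = 0.0061), or 1.52-fold on that scale. The adjusted p was 0.0712 in the 3-set fit and 0.0839 with the replicate number as a block, both above the threshold, and the difference was 0.54 within replicate 1, 0.60 within replicate 2 and 0.63 within replicates 3 and 4. Eno1 (ENSMUSG00000063524) lies on chromosome 4 of mm10 from 150236721 to 150248879 on the plus strand.

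Pgam1, the phosphoglycerate mutase of the step before enolase, showed the same direction. It had 109, 111, 114 and 108 TPM in AeEMs, against 80.5, 82.1, 77.1 and 88.6 TPM in AeMMs. The groups were apart by more than the spread within either of them. The log2 difference was 0.43 (SE 0.06, limma adjusted p = 0.0122), and the adjusted p was 0.187 in the 3-set fit and 0.215 with the replicate block. The difference was almost the same in each set, at 0.43 within replicate 1, 0.43 within replicate 2 and 0.42 within replicates 3 and 4. Pgam1 (ENSMUSG00000011752) lies on chromosome 19 from 41911923 to 41918660 on the plus strand.

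Aldoa, the aldolase that splits fructose bisphosphate into triose phosphates, was among the most abundant of the enzymes. It had 691, 699.9, 706 and 707 TPM in AeEMs, against 559.8, 577, 594 and 553 TPM in AeMMs. The 4 AeEM libraries lay close together, all above the AeMM libraries. The log2 difference was 0.30 (SE 0.05, limma adjusted p = 0.0143), and the adjusted p was 0.234 in the 3-set fit, 0.253 with the replicate block and 0.0871 unpaired without the mean-variance trend. The difference was 0.30 within replicate 1, 0.28 within replicate 2 and 0.30 within replicates 3 and 4. Aldoa (ENSMUSG00000030695) lies on chromosome 7 from 126795234 to 126800751 on the minus strand.

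Among these 3 enzymes, Eno1 alone kept its unpaired call with fewer libraries. It passed with any of the 8 libraries left out, with adjusted p between 0.0063 and 0.0288. Those fits were unpaired too, on values already adjusted by set. In replicates 1 and 2 the partner of a left-out library still reflects it, so leaving it out is no independent check. Pgam1 and Aldoa each missed the threshold without AeEM replicate 1, AeEM replicate 2, AeMM replicate 1 or AeMM replicate 2, with adjusted p up to 0.0593 for Pgam1 and 0.0693 for Aldoa. Their differences themselves changed little, from 0.40 to 0.46 for Pgam1 and from 0.28 to 0.31 for Aldoa.

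**Figure D2:**
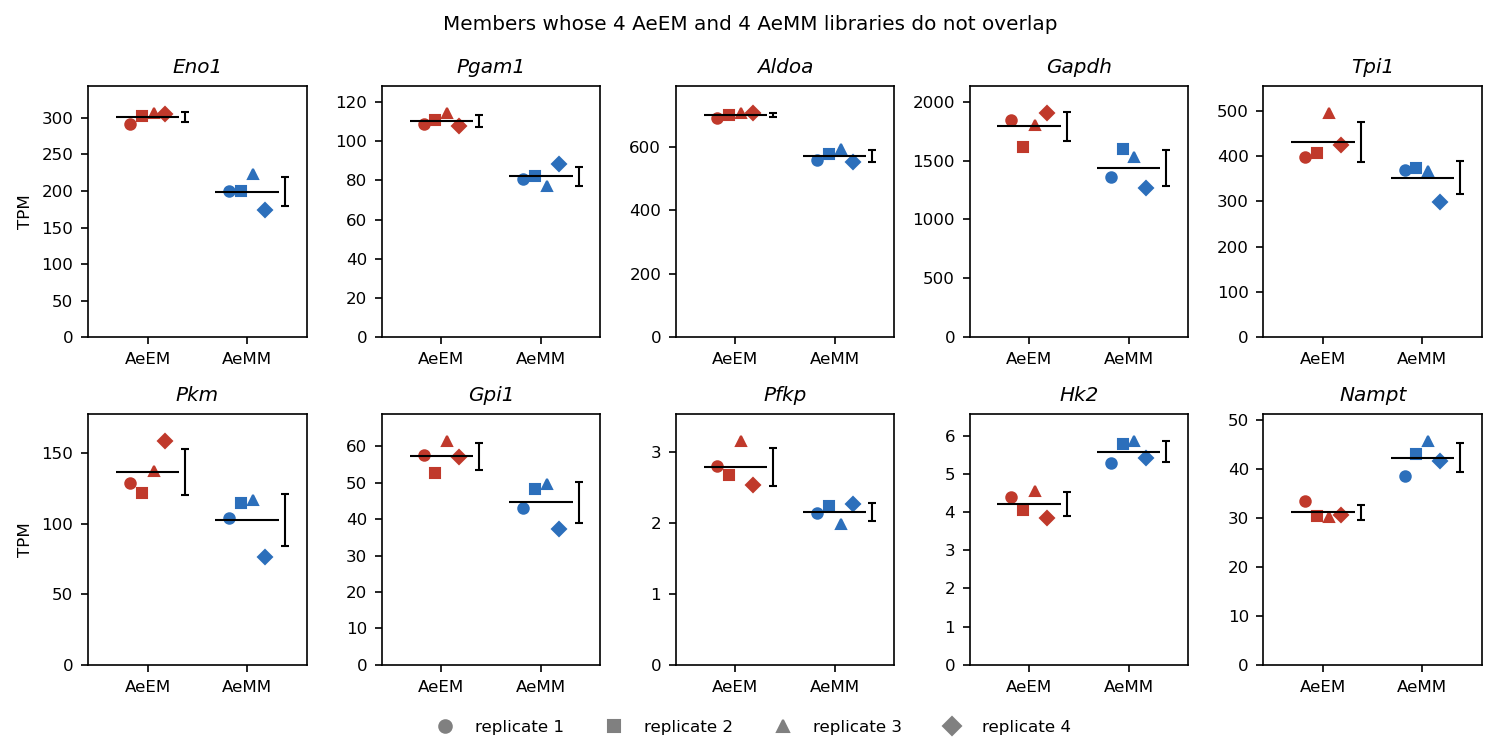
Levels (TPM, linear axes from 0) of the 10 genes whose 4 AeEM libraries do not overlap with the 4 AeMM libraries. Each marker is a library, its shape gives the replicate, the horizontal line is the group mean and the bar beside it is 1 SD. Eno1, Pgam1, Aldoa, Gapdh, Tpi1, Pkm, Gpi1 and Pfkp lie higher in AeEMs, and Hk2 and Nampt lie lower. Only Eno1, Pgam1, Aldoa and Nampt passed the unpaired test, and none of the 10 passed in the 3-set fit.

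A further 5 enzymes had all 4 AeEM libraries above all 4 AeMM libraries without passing the test. Gapdh, which oxidises glyceraldehyde phosphate, was the most abundant of the 39 genes, with 1845, 1614, 1801 and 1906 TPM in AeEMs, against 1359.7, 1595, 1528 and 1269 TPM in AeMMs. The libraries of replicate 2 nearly met, and the difference was 0.44 within replicate 1, 0.02 within replicate 2 and 0.41 within replicates 3 and 4. Over all libraries it was 0.32 (SE 0.08, limma adjusted p = 0.0886, 3-set adjusted p = 0.39), and it passed in the unpaired fit when libraries were rescaled by size factors (adjusted p = 0.0306). Gapdh was also the transcript by which amplified cDNA was checked before library construction, so its level was part of a quality filter.

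Tpi1, triosephosphate isomerase, had 397, 405, 495 and 425 TPM in AeEMs, against 369, 374, 367 and 299 TPM in AeMMs. Most of its difference of 0.29 (SE 0.10, limma adjusted p = 0.16, 3-set adjusted p = 0.49) came from replicates 3 and 4, where it was 0.47, against 0.10 in replicate 1 and 0.12 in replicate 2. Pkm, the pyruvate kinase that closes the pathway, had 129, 121, 137 and 159 TPM in AeEMs, against 104, 114, 116 and 76.4 TPM in AeMMs. Its highest AeEM library and its lowest AeMM library were both replicate 4, and the difference was 0.42 (SE 0.14, limma adjusted p = 0.17, 3-set adjusted p = 0.47).

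Gpi1, the isomerase that makes fructose 6-phosphate, had 57.5, 52.7, 61.5 and 57.2 TPM in AeEMs, against 43.1, 48.4, 49.6 and 37.4 TPM in AeMMs. Its difference of 0.36 (SE 0.10) missed the threshold in the unpaired limma fit at an adjusted p of 0.106, and the adjusted p was 0.43 in the 3-set fit. It passed in the unpaired fit after rescaling by size factors (0.0389) or quantiles (0.0472). Pfkp, the platelet form of phosphofructokinase, was a minor transcript, with 2.81, 2.68, 3.16 and 2.53 TPM in AeEMs, against 2.14, 2.24, 1.98 and 2.27 TPM in AeMMs. Its difference was 0.26 (SE 0.10, limma adjusted p = 0.22, 3-set adjusted p = 0.68). For each of these 5 enzymes the difference was positive in all 3 sets, which the lack of overlap makes certain.

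Hk2, the inducible hexokinase, was the enzyme whose libraries lay apart in the other direction. It had 4.38, 4.06, 4.54 and 3.85 TPM in AeEMs, against 5.27, 5.77, 5.87 and 5.41 TPM in AeMMs, with every AeEM library below every AeMM library. Such an order was found for 6.53% of all tested genes. The difference of -0.34 (SE 0.09) missed the threshold in limma, with an adjusted p of 0.10 unpaired and 0.51 in the 3-set fit. Within the 3 sets it was -0.22, -0.42 and -0.36, a sign that the lack of overlap makes certain.

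The remaining glycolytic enzymes did not separate the groups. Hk3, the hexokinase typical of myeloid cells, averaged 17.9 ± 1.53 TPM in AeEMs and 19.3 ± 2.99 TPM in AeMMs (SD, n = 4 each). Pfkl, the liver form of phosphofructokinase, averaged 13.3 ± 1.70 TPM in AeEMs and 11.7 ± 1.61 TPM in AeMMs, and Pgk1, phosphoglycerate kinase, 60.6 ± 11.3 TPM in AeEMs and 56.8 ± 4.57 TPM in AeMMs. Ldha, the main lactate dehydrogenase chain, averaged 435 ± 35.7 TPM in AeEMs and 382 ± 33.9 TPM in AeMMs, a difference of 0.19 (SE 0.08, limma adjusted p = 0.28) that was -0.06 within replicate 1, 0.05 within replicate 2 and 0.38 within replicates 3 and 4. Aldoc, the brain form of aldolase, differed far more between libraries than between groups, at 0.620 to 10.5 TPM in AeEMs and 0.840 to 10.1 TPM in AeMMs, and its interval ran from -1.09 to 2.05. In both groups its highest value was in replicate 4 and its lowest in replicate 3. The untested Hk1 averaged 0.347 TPM in AeEMs and 0.310 TPM in AeMMs, and Pfkm 0.473 TPM in AeEMs and 0.458 TPM in AeMMs.

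**Figure D3:**
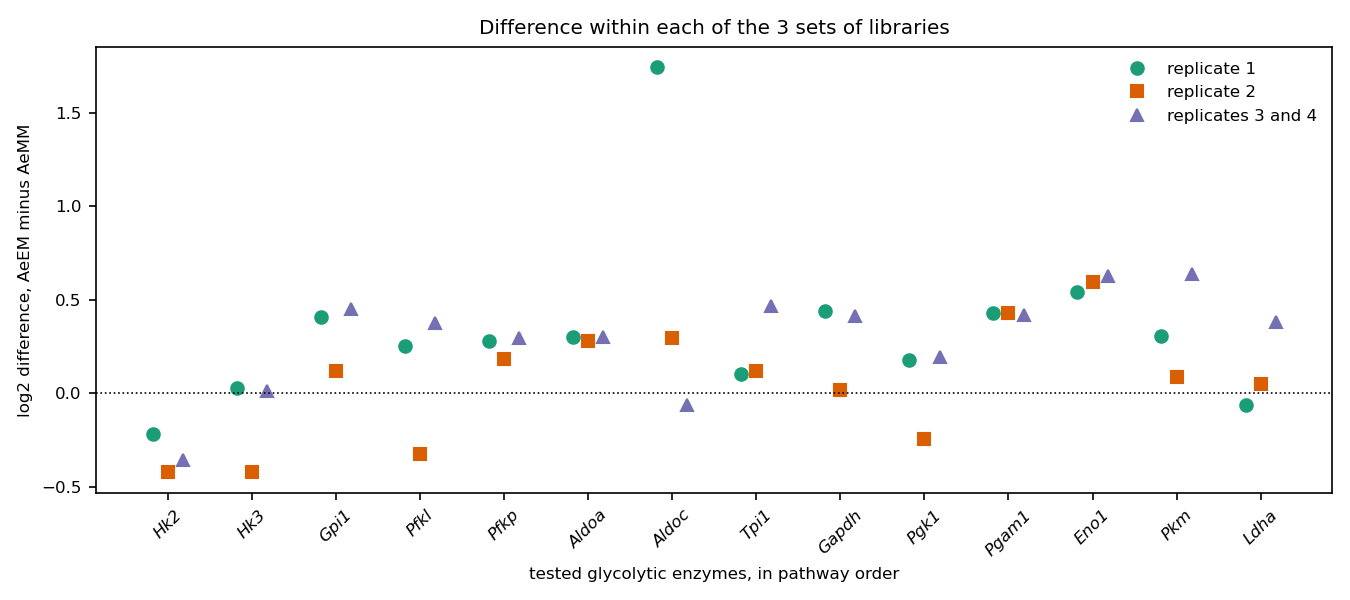
Log2 difference, AeEM minus AeMM (vertical axis), of the 14 tested glycolytic enzymes in pathway order (horizontal axis), computed within replicate 1, within replicate 2 and within replicates 3 and 4 together. The 3 points of Aldoa (0.30, 0.28 and 0.30), Pgam1 (0.43, 0.43 and 0.42) and Eno1 (0.54, 0.60 and 0.63) lie close together, whereas those of Gapdh, Tpi1, Pkm and Aldoc are spread.

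The sets did not show the same pattern across the pathway. The difference was positive in all 3 sets for 8 of the 21 transporter and enzyme genes (38.1%) and negative in all 3 for 2 (9.52%), against 13.4% and 19.2% of all tested genes. The 8 are the same genes whose AeEM libraries all lay above the AeMM libraries. That order fixes the sign in every set, so their count is not a second result. The median over the 21 was 0.28 within replicate 1, -0.04 within replicate 2 and 0.30 within replicates 3 and 4, while the median of all tested genes was -0.01, -0.14 and 0.05 in the same sets. Added up, the 16 glycolytic enzymes held 4024, 3813, 4193 and 4245 TPM in AeEMs, against 3223, 3503, 3428 and 2935 TPM in AeMMs. The 2 groups of sums did not overlap, and Gapdh was the largest contributor to each. Most of each sum came from enzymes already described as not overlapping, so the sums are no separate result.

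Reads of several of these genes may not have been assigned to 1 gene. In GENCODE M21, 12 of the 39 genes share at least 500 bases at 95% identity or more with another gene, which for Pfkp and Higd1a is a gene that overlaps them on the opposite strand. Gapdh has 73 such partners, of which 3 are listed in the table. Eno1 has 3, among them Eno1b, a near-identical copy (99.5% over 1736 bases) that had 8.63 TPM in AeEMs and 5.92 TPM in AeMMs, small beside Eno1 itself. Pgam1 has 1, a pseudogene identical over 765 bases, and Aldoa and Nampt have none. How the authors' counting treated such reads is not given in the sources used here, so the levels of Eno1, Pgam1, Gapdh, Gpi1, Pgk1, Pkm, Ldha, Mif, Bnip3 and Bnip3l are uncertain to that extent. Smart-seq2 keeps no strand, so reads from genes that overlap on the opposite strand cannot be told apart either, which touches, among others, Pfkp (5.58% of its exon bases), Gpi1 (11.5%), G6pdx (13.6%), Bnip3 (22.3%) and Higd1a (22.5%).

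Of the enzyme families compared, the shares of isoenzymes lay apart between the groups at hexokinase. As a share of hexokinase TPM, Hk3 made up 78.4% to 81.7% in AeEMs and 73.3% to 78.3% in AeMMs, and Hk2 16.3% to 20.2% in AeEMs and 20.9% to 25.5% in AeMMs, with no overlap for either. Hk1 made up at most 2.02% in AeEMs and 1.61% in AeMMs, so the shares of Hk2 and Hk3 mirror each other. Pfkl supplied 78.2% to 83.0% of phosphofructokinase TPM in AeEMs and 79.5% to 83.6% in AeMMs. Aldoa made up at least 98.2% of aldolase in every library. Ldha made up 97.9% to 98.6% of lactate dehydrogenase in AeEMs and 97.1% to 98.2% in AeMMs, and Eno1 94.7% to 96.2% of enolase in AeEMs and 91.8% to 95.7% in AeMMs. Outside the enzymes, the share of Slc16a3 among monocarboxylate transporters did not overlap either, at 53.1% to 67.7% in AeEMs and 31.1% to 52.9% in AeMMs. These shares describe the libraries and were not tested.

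**Figure D4:**
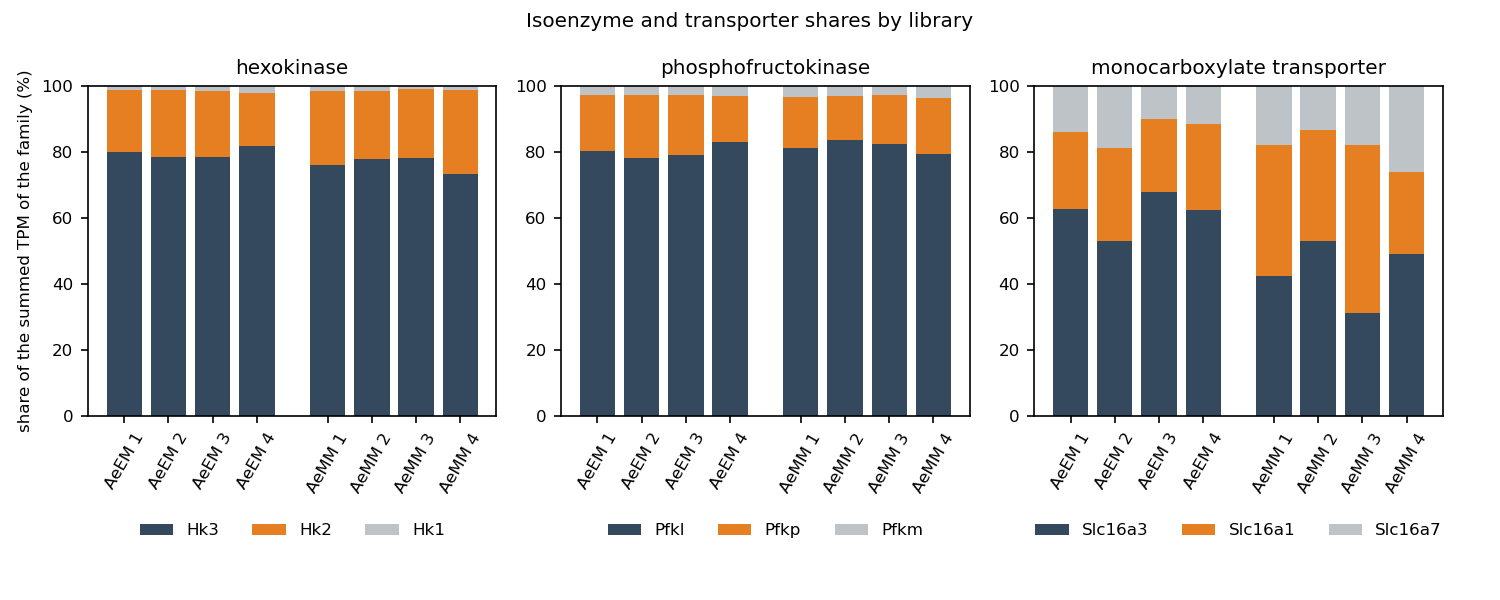
Share of the summed TPM of a family (vertical axis, %) taken by each of its genes in each library, with the 4 AeEM libraries left of the 4 AeMM libraries, for hexokinases, phosphofructokinases and monocarboxylate transporters. Hk2 takes 16.3% to 20.2% in AeEMs and 20.9% to 25.5% in AeMMs, phosphofructokinase looks alike in both groups, and Slc16a3 takes 53.1% to 67.7% in AeEMs and 31.1% to 52.9% in AeMMs.

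At the 2 ends of the pathway, the transporters were low and variable. Slc2a1, the glucose transporter GLUT1, averaged 6.09 ± 1.13 TPM in AeEMs and 5.99 ± 1.39 TPM in AeMMs (SD, n = 4 each), a difference of 0.03 with an interval of -0.36 to 0.41. Slc2a6, which was not among the 39 genes, was the most abundant of the 4 glucose transporter genes compared, at 59.0% to 68.8% of their TPM in AeEMs and 62.3% to 73.0% in AeMMs. Slc16a3, the lactate exporter MCT4, had 3.74, 3.12, 4.84 and 5.51 TPM in AeEMs, against 2.92, 3.67, 1.96 and 2.30 TPM in AeMMs. The groups overlapped in replicate 2, and the difference of 0.51 (SE 0.19) did not pass, at an adjusted p of 0.20 in the unpaired limma fit and 0.54 in the 3-set fit. Slc16a1, the lactate transporter MCT1, had 1.38, 1.64, 1.58 and 2.305 TPM in AeEMs, against 2.73, 2.34, 3.20 and 1.15 TPM in AeMMs. AeMM replicate 4 lay below every AeEM library and the other 3 AeMM libraries above them, and the difference of -0.27 (SE 0.21, limma adjusted p = 0.58, 3-set adjusted p = 0.82) did not pass.

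None of the pentose phosphate enzymes passed, and their groups overlapped throughout. Taldo1, transaldolase, had 131.5, 119.6, 136 and 118.5 TPM in AeEMs, against 110.1, 123, 143 and 94.6 TPM in AeMMs. Its difference of 0.12 (SE 0.12, limma adjusted p = 0.68) was the largest of the 4, and AeMMs held both the highest and the lowest library. Tkt, transketolase, had 20.4, 17.1, 19.9 and 14.6 TPM in AeEMs, against 15.5, 18.9, 21.2 and 17.2 TPM in AeMMs, with a difference of -0.02 (SE 0.13, interval -0.32 to 0.28) that turned to 0.0026 with size factors. G6pdx, which commits glucose 6-phosphate to the pathway, differed by 0.10 (interval -0.23 to 0.43), and Pgd, the second dehydrogenase, by 0.09 (interval -0.15 to 0.33). Summed, the 4 genes held 287 ± 22.1 TPM in AeEMs and 269.9 ± 42.6 TPM in AeMMs.

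**Figure D5:**
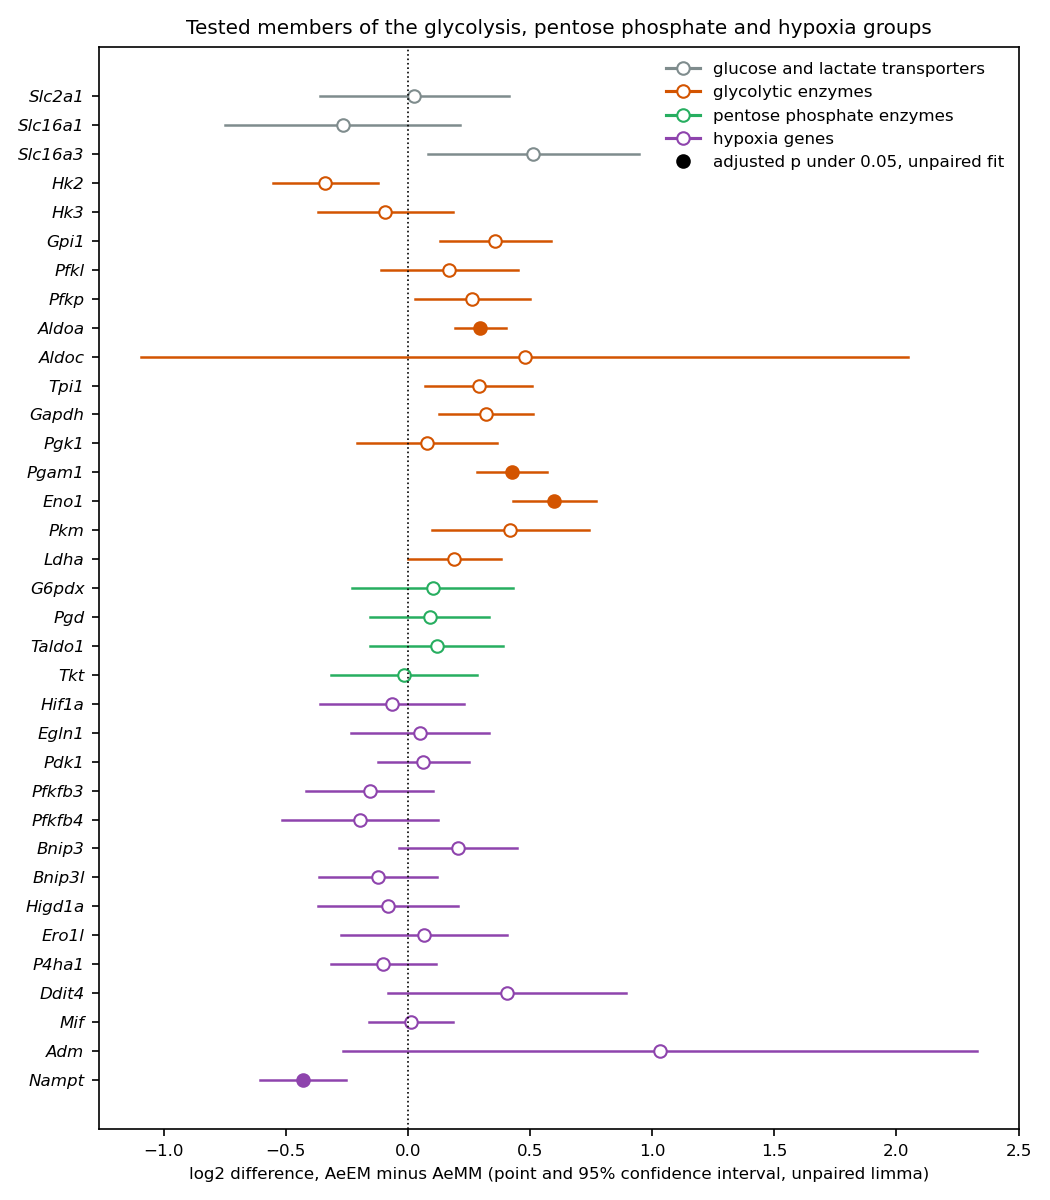
Log2 difference, AeEM minus AeMM, of the 35 tested genes (horizontal axis, point and 95% confidence interval from the unpaired limma fit), grouped from top to bottom as transporters, glycolytic enzymes, pentose phosphate enzymes and hypoxia genes. Filled points passed an adjusted p of 0.05 in that fit: Aldoa (0.30), Pgam1 (0.43), Eno1 (0.60) and Nampt (-0.43). The intervals of all 4 pentose phosphate genes and of 13 of the 14 hypoxia genes include 0.

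Of the 14 tested hypoxia genes, 7 had a positive difference (median -0.03), against 48.8% of all tested genes (median -0.01). In the unpaired fit 0 of the 14 were higher in AeEMs, 1 was lower (Nampt) and 13 did not pass, against 1.25% of all tested genes called higher and 1.16% called lower. At an unadjusted p below 0.05 there was 1 of the 14, against 1587 of the 8801 genes. The difference between the hypoxia genes and the enzymes was not tested. Summed, the 16 hypoxia genes held 1064 ± 76.6 TPM in AeEMs and 1070.4 ± 80.0 TPM in AeMMs (SD, n = 4 each), most of it Mif.

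Nampt, the rate-limiting enzyme that salvages nicotinamide for NAD, was lower in AeEMs in the unpaired fit. It had 33.5, 30.4, 30.2 and 30.6 TPM in AeEMs, against 38.7, 43.2, 45.9 and 41.7 TPM in AeMMs. Every AeEM library lay below every AeMM library, and replicate 1 held both the highest AeEM value and the lowest AeMM value. Because the adjustment gave each set nearly the same mean, a high AeEM value in that pair goes with a low AeMM value. The log2 difference was -0.43 (SE 0.08, limma adjusted p = 0.0259), and the adjusted p was 0.267 in the 3-set fit, 0.285 with the replicate block and 0.0568 unpaired without the mean-variance trend. The difference was -0.20 within replicate 1, -0.49 within replicate 2 and -0.51 within replicates 3 and 4. The unpaired call held with AeEM replicate 3 left out and was lost with any other library left out, with adjusted p up to 0.0987. Nampt (ENSMUSG00000020572) lies on chromosome 12 from 32819545 to 32853349 on the plus strand.

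The genes of oxygen sensing did not pass either. Hif1a, the oxygen-regulated subunit of HIF, averaged 21.8 ± 3.04 TPM in AeEMs and 22.9 ± 3.14 TPM in AeMMs, a difference of -0.06 with an interval of -0.36 to 0.23. Egln1, the prolyl hydroxylase that marks HIF for degradation, averaged 5.11 ± 0.602 TPM in AeEMs and 4.92 ± 0.701 TPM in AeMMs. The untested Egln3, a hydroxylase that HIF induces, averaged 0.213 TPM in AeEMs and 0.418 TPM in AeMMs.

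The genes by which HIF acts on metabolism and mitochondria did not pass. Pdk1, the kinase that shuts pyruvate out of the tricarboxylic acid cycle, averaged 8.93 ± 0.459 TPM in AeEMs and 8.49 ± 0.198 TPM in AeMMs. Pfkfb3 and Pfkfb4 make the allosteric activator of phosphofructokinase, and their differences were -0.16 (SE 0.11) and -0.20 (SE 0.14). Bnip3 and Bnip3l, mitophagy receptors, differed by 0.21 (SE 0.11) and -0.12 (SE 0.11), and Higd1a, a mitochondrial inner membrane protein, by -0.08 (SE 0.13). Limma adjusted p was between 0.37 and 0.80 for these 5 genes.

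Mif, a cytokine that is also a HIF target, was the second most abundant of the 39 genes, with 857 to 1009.8 TPM in AeEMs and 805 to 974 TPM in AeMMs. Its difference of 0.01 had an interval of -0.16 to 0.18 and turned to -0.021 with quantile scaling. Ero1l, which forms disulfides in the endoplasmic reticulum, and P4ha1, a collagen prolyl hydroxylase subunit, differed by 0.07 (SE 0.15) and -0.10 (SE 0.10). Ddit4, an inhibitor of mTOR signalling, averaged 1.57 ± 0.841 TPM in AeEMs and 0.886 ± 0.250 TPM in AeMMs, with a difference of 0.41 (SE 0.21, limma adjusted p = 0.37) that was 0.20 without AeEM replicate 4. The untested Ndrg1 averaged 0.194 TPM in AeEMs and 0.248 TPM in AeMMs.

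Adm, the gene of the vasodilator peptide adrenomedullin, had the largest difference among the 35 tested of the 39 genes, with a wide interval. It had 0.706, 1.14 and 7.54 TPM in AeEM replicates 1 to 3 and had 0 TPM in AeEM replicate 4, against 0.498 and 0.248 TPM in AeMM replicates 1 and 2 and 0 TPM in AeMM replicates 3 and 4 (deposited values just below 0). A single library, AeEM replicate 3, held most of the signal, and the difference of 1.03 (SE 0.57) had an interval of -0.27 to 2.33 and an adjusted p of 0.39 in the unpaired limma fit and 0.68 in the 3-set fit. Without that library the difference was 0.41.

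Other genes of the same pathways showed no calls. Of 24 further genes of glycolysis and gluconeogenesis, 11 were tested and 0 passed in limma. At an unadjusted p below 0.05 there was 1 of the 11, against 1587 of the 8801 genes. The differences of the 11 ran from -0.30 for Pck2, a gluconeogenic carboxykinase of mitochondria, to 0.47 for Eno1b (SE 0.14, limma adjusted p = 0.12). All AeEM libraries of Eno1b lay above its AeMM libraries, an order found for 5.72% of all tested genes. Of 10 further pentose phosphate genes 5 were tested, from -0.30 for H6pd, the dehydrogenase of the endoplasmic reticulum, to 0.19 for Pgls, the lactonase, with 0 passing and 1 at an unadjusted p below 0.05. Of 12 genes of pyruvate entry into mitochondria 10 were tested, from -0.18 for Mpc2, a mitochondrial pyruvate carrier subunit, to 0.36 for Pdp2, a pyruvate dehydrogenase phosphatase, again with 0 passing and 1 at an unadjusted p below 0.05.

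Of 29 further HIF pathway genes 19 were tested, and 10 had a positive difference (median 0.0046). None passed in limma, and 3 of the 19 had an unadjusted p below 0.05, against 1587 of the 8801 genes. The values ran from -0.42 for Gys1, glycogen synthase (SE 0.23), to 0.81 for Pdgfb, a platelet-derived growth factor chain (SE 0.32, limma adjusted p = 0.22). The groups of Pdgfb overlapped. Outside the rule for naming genes, Kdm3a, a histone demethylase, was chosen after its values were seen, with 5.33 to 5.64 TPM in AeEMs and 6.67 to 7.91 TPM in AeMMs, a difference of -0.37 (SE 0.09, limma adjusted p = 0.0717, 3-set adjusted p = 0.43), and so was Ankrd37, with 6.49 to 9.74 TPM in AeEMs and 4.37 to 6.37 TPM in AeMMs, a difference of 0.40 (SE 0.15, limma adjusted p = 0.21, 3-set adjusted p = 0.56). Vegfa, the angiogenic factor best known as a HIF target, stayed below a mean of 1 TPM.

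The promoters of the genes are shown because HIF binds the letters ACGTG, in which the first base may also be G, so that the windows let a reader see where such letters lie in genes that were and were not called. Windows of 250 bases before to 50 after the start came from RefSeq on GRCm38.p6, the assembly of mm10, and 37 of the 39 genes matched, Ero1l through its newer symbol Ero1a. Bnip3l and Ndrg1 did not match. At least 1 copy of ACGTG or of the form with G first (GCGTG), on either strand and so counting the reverse complements (CACGT for one, while CACGC belongs to the other), was found in 35 of these 37 (94.6%), in 21 of 23 transporter and enzyme genes and in 14 of 14 hypoxia genes. The same letters were found in 68.0% of 6893 tested genes with a window and in 43.8% of all 32851 windows of this length. The overlapping palindrome CACGTG, the E-box letters, was found in 6 of the 37 genes (16.2%) and in 12.4% of the tested genes. No match was found in the windows of Gpi1 and Tpi1. For the 4 genes called in the unpaired fit and for Ldha, which was not called and held 7 matches, the window with the most matches is given 5′ to 3′ on the gene's strand, with the matches in capitals. They are chr4:150236458-150236757 (plus) for Eno1, chr19:41911621-41911920 (plus) for Pgam1, chr7:126799205-126799504 (minus) for Aldoa, chr12:32820085-32820384 (plus) for Nampt and chr7:46845554-46845853 (plus) for Ldha.
Eno1: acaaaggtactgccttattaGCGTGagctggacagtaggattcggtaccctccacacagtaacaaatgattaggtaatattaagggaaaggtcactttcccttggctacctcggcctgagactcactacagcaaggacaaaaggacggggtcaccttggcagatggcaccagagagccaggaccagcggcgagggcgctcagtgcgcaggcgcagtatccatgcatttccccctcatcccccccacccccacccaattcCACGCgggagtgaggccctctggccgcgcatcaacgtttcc
Pgam1: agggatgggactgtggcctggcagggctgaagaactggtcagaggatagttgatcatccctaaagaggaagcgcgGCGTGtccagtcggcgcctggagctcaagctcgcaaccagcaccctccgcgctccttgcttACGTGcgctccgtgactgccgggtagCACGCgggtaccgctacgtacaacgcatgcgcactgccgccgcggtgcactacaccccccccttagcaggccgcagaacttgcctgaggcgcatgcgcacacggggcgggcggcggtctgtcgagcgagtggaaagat
Aldoa: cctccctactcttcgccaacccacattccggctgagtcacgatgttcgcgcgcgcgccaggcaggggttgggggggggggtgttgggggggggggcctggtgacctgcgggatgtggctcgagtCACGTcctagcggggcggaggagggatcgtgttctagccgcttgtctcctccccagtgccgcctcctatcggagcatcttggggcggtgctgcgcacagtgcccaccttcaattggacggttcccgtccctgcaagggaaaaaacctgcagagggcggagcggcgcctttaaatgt
Nampt: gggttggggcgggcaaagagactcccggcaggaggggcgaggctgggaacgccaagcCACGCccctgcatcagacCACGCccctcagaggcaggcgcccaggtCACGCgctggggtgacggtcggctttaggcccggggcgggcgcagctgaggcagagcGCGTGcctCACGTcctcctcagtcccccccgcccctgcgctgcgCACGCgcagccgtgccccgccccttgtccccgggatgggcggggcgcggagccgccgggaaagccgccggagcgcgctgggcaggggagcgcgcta
Ldha: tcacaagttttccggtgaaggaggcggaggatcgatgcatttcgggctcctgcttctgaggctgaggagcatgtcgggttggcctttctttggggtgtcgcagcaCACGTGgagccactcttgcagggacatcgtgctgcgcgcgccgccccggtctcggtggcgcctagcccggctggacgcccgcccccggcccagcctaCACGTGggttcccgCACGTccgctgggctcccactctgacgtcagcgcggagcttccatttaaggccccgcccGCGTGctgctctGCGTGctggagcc
Matches numbered 2 in Eno1, 3 in Pgam1, 1 in Aldoa, 6 in Nampt and 7 in Ldha. A match is only a run of letters, and no binding was measured here.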

How the data were processed

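RNA-seq of 8 Smart-seq2 libraries (4 AeEM, 4 AeMM) was used as 1 table of log2(TPM + 1) values deposited by the authors, whose reads had passed through fastp, STAR 2.7.2a on mm10 and Subread's featureCounts. The conversion to TPM, the log2 step, the adjustment of the deposited values between the 3 sets and the annotation are not given in the sources used here. The median range of the 3 set means was 0.0102 on the log2 scale, against 0.210 between the means of replicates 3 and 4. The labels call the replicates biological, and p-values measure only the spread between them that the adjustment by set left. Depth is unknown because the table holds no counts, so no counting interval is given, and TPM summed to 958862 to 974303 per library.

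The comparison was limma 3.58.1 in R 4.3.3, two-sided and unpaired, on the 8801 genes that averaged 1 TPM or more, using the trend of variance on mean and Benjamini-Hochberg adjustment at 0.05. TPM turned back from the log2 values was set to 0 where it came out below 0. Residual degrees of freedom were 6, and 4 in the fit with the set as a term. The 39 genes, the lists and the tests were chosen with earlier results of these data known. Library values are given for genes past the threshold, without overlap, or with the highest or lowest difference of their group, and other genes by mean, range or count. Of the other pathway lists the highest and lowest difference are named. Gene positions and copies came from GENCODE M21 (BLAST 2.17.0). As alternatives, pseudocounts of 0.1 and 5, no filter or 1 of 5 TPM, quantile scaling or median-of-ratios size factors, and no trend were tried, as were the 3 sets as a term, the replicate number as a block, and each library left out in turn.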

Additional observations from a re-analysis of the deposited data

Results flagged for a closer look

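In 5 of 78 groups of 4 libraries checked (39 genes in 2 groups), 1 library stood apart from the other 3 by more than Dixon's gap test allows. Chance meets that in about 1 of 20 groups of independent values. The values here were adjusted by set and are not independent, so that rate need not hold. For Pfkl, AeMM replicate 2 was at 3.92 on the log2(TPM + 1) scale (14.1 TPM, against 10.6 to 11.1 TPM in the other AeMM libraries). For Pgk1 it was the same library, at 6.01 (63.6 TPM, against 54.0 to 55.0 TPM). For Tpi1, AeMM replicate 4 was the low library at 8.23 (299 TPM, against 367 to 374 TPM), in a gene whose difference was largest in replicates 3 and 4. For Higd1a, AeEM replicate 3 was at 4.38 (19.8 TPM, against 14.6 to 15.4 TPM). For Nampt, AeEM replicate 1 was at 5.11 (33.5 TPM, against 30.2 to 30.6 TPM), the AeEM library nearest to the AeMM libraries, and without it the difference was -0.46.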

How the results depend on the processing

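With the 3 sets as a term, 0 transporter and enzyme genes were called higher and 0 hypoxia genes lower, and 9 of all tested genes were called higher and 5 lower. With a replicate block these were 0 and 0, and 3 and 2 of all genes. The adjusted p with the block was 0.0839 for Eno1, 0.215 for Pgam1, 0.253 for Aldoa and 0.285 for Nampt. The 8 libraries share 4 mice, but no source says that equal numbers mark 1 mouse, and replicates 1 and 2 each form a set whose mean was adjusted, so a check of pairing was void. With size factors 5 transporter and enzyme genes were called higher, adding Gpi1 (adjusted p = 0.0389, and 0.0472 with quantile scaling) and Gapdh (0.0306). Without the trend 0 hypoxia genes and 58 of all genes were called lower, and Aldoa (0.0871) and Nampt (0.0568) missed the threshold. With 1 library left out, 1 to 3 transporter and enzyme genes were called higher and 0 to 1 hypoxia genes lower, and 40 to 106 of all genes were called higher and 31 to 113 lower. Without AeEM replicate 1, AeEM replicate 2, AeMM replicate 1 or AeMM replicate 2, Eno1 was the enzyme still called. The fits with 1 library left out were unpaired, on values already adjusted by set. Mif turned to -0.021 with quantile scaling and Tkt to 0.0026 with size factors. Leaving out 1 library turned 7 genes whose differences lay near 0, with ranges of -0.072 to 0.15 for Slc2a1, -0.087 to 0.074 for Tkt, -0.036 to 0.15 for Pgk1, -0.045 to 0.046 for Mif, -0.018 to 0.12 for Egln1, -0.0097 to 0.21 for G6pdx and -0.0051 to 0.18 for Ero1l. In all, 303 of 305 values under other settings and 266 of 280 with 1 library left out kept their direction. The cause of these changes was not tested.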
